A study of Mus musculus with 7 samples.

Results

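The odor response of an olfactory sensory neuron ends in a short chain of ion channels and carriers, and 6 genes that encode parts of that chain are described here: Cnga2, Cnga4, Cngb1, Ano2, Slc24a4 and Slc12a2. They were listed for their known role and matched by symbol among the 54532 genes of the expression tables. All 6 had a row, and all 6 were among the 17975 genes whose read counts were high enough to be tested.

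In the cilia of these neurons, odor binding raises cyclic AMP, which opens a cyclic nucleotide-gated (CNG) channel. Calcium entering through that channel opens a chloride channel, and chloride leaves the cell because a cotransporter has loaded it beforehand, which enlarges the current. Calcium is then removed by an exchanger, and the response ends. Cnga2 encodes the CNG subunit that can form a channel by itself. Cnga4 and Cngb1 encode modulatory subunits that raise the sensitivity of the channel to cyclic AMP and speed its inhibition by calcium and calmodulin. Ano2 encodes the calcium-activated chloride channel, Slc24a4 the potassium-dependent sodium-calcium exchanger NCKX4, and Slc12a2 the sodium, potassium and chloride cotransporter NKCC1.

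Messenger RNA was sequenced from cells sorted by fluorescence from mouse olfactory epithelium. The mature olfactory sensory neurons were those of OMP-GFP mice aged 2, 7 and 16 days after birth (P2, P7, P16; 3 libraries). The intermediate progenitors were those of Neurog1-GFP mice, with 4 libraries made at P3, P7, P9 and P16. Each library was made from pooled purified cells, and the green fluorescent protein (GFP) used for sorting is driven by Omp, a gene of mature olfactory neurons, or by Neurog1, a gene of neuronal progenitors. The labels give neither the sex of the animals nor whether the reporter replaces the gene it is named for. Population and mouse line coincide, so the 2 cannot be told apart.

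Each library held from 24203965 to 25930727 reads assigned to genes. Of 10 markers of mature neurons 9 were higher in the mature libraries, with summed levels of 13500 to 17300 TPM (a transcript level scaled for transcript length and library total) in mature neurons and 4987 to 7438 TPM in progenitors, and no marker was at 0. The exception was Omp itself, which had 1066, 1413 and 1630 TPM in mature neurons of P2, P7 and P16, against 1981, 1323, 2371 and 2306 TPM in progenitors at P3, P7, P9 and P16. Of 10 progenitor markers 9 were lower in mature neurons (summed 313.2 to 385.2 TPM in mature neurons and 1776 to 2406 TPM in progenitors), as were 9 of 10 markers of immature neurons (1730 to 2455 TPM in mature neurons and 7610 to 9309 TPM in progenitors). The libraries labelled progenitor thus also hold transcripts of later neuronal stages, and the part of these in the progenitor levels below was not tested. In such pools, fewer cells of a type and less RNA per cell cannot be told apart.

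The channel and exchanger genes were detected in every library of both populations. Cnga2 had the highest level of the 6 in all 7 libraries. Its level was 1065, 1257 and 1529 TPM in mature neurons of P2, P7 and P16, against 457.7, 426.1, 555.4 and 556.3 TPM in progenitors at P3, P7, P9 and P16. Every mature library lay above every progenitor library. Among all genes ordered by TPM, Cnga2 ranked 80, 57 and 47 in mature neurons of P2, P7 and P16, against 286, 306, 215 and 215 in progenitors at P3, P7, P9 and P16. The mean was 1284 ± 232.9 TPM in mature neurons (SD, n = 3) and 498.9 ± 67.0 TPM in progenitors (SD, n = 4), so the progenitor level was 38.9% of the mature level.

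Cnga4, a modulatory subunit that does not form a channel by itself, had 263.2, 335.6 and 537.8 TPM in mature neurons of P2, P7 and P16, against 90.9, 66.5, 116.8 and 113.3 TPM in progenitors at P3, P7, P9 and P16. Cngb1, whose protein also serves the rod photoreceptor channel, had 167.6, 227.5 and 279.8 TPM in mature neurons at the same ages, against 58.4, 55.1, 79.8 and 71.6 TPM in progenitors. For both subunits the mature libraries lay above all progenitor libraries, with P2 lowest and P16 highest among the mature neurons and P7 lowest and P9 highest among the progenitors. The progenitor mean was 25.6% of the mature mean for Cnga4 and 29.4% for Cngb1.

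Ano2, the chloride channel that carries much of the receptor current in mouse olfactory neurons, had 532.8, 696.9 and 677.6 TPM in mature neurons of P2, P7 and P16, against 166.1, 107 and 172.3 TPM in progenitors at P3, P7 and P9 and 152.8 TPM at P16. After Cnga2 it was the most abundant of the 6 in 6 of the 7 libraries, the exception being P7 progenitors, where Slc12a2 was higher. The populations did not overlap. The mean was 635.8 ± 89.7 TPM in mature neurons (SD, n = 3) and 149.5 ± 29.5 TPM in progenitors (SD, n = 4), so the progenitor level was 23.5% of the mature level.

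Slc24a4 had the lowest level of the 6 in every library. This exchanger gene had 33.2, 44.3 and 51.6 TPM in mature neurons of P2, P7 and P16, against 10.7, 7.46, 11.99 and 10.3 TPM in progenitors at P3, P7, P9 and P16. These TPM rested on 1546, 1961 and 2416 reads in mature neurons and on 539, 356, 613 and 461 reads in progenitors at those ages. Here too the populations did not overlap, and the progenitor mean was 23.5% of the mature mean.

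For Slc12a2, the cotransporter gene, the populations were not apart. Its level was 88.0, 121.4 and 141.5 TPM in mature neurons of P2, P7 and P16, against 101.9, 125.4, 95.5 and 130.2 TPM in progenitors at P3, P7, P9 and P16. The lowest of the 7 values was a mature library (P2) and so was the highest (P16). The means were 117 ± 27.0 TPM in mature neurons (SD, n = 3) and 113.2 ± 17.1 TPM in progenitors (SD, n = 4). NKCC1 also serves secretory epithelia, and the summed level of 10 markers of Bowman's glands and ducts was 630.4 to 2363 TPM in mature neurons and 277.4 to 493.4 TPM in progenitors, with none of these markers at 0 in any library. The upper end was the P16 mature library, through the gland genes Bpifb9a (95.3, 77.6 and 780.3 TPM in mature neurons of P2, P7 and P16) and Bpifb9b (263, 187.6 and 1349 TPM), while Aqp5, Aqp4 and Bpifa1 were lowest at P16 among the mature libraries. The summed level of 13 sustentacular cell markers was 3565 to 4535 TPM in mature neurons and 2207 to 3523 TPM in progenitors, likewise with none at 0. Markers of microvillous cells and ionocytes went the other way, with 29.1 to 54.1 TPM in mature neurons and 73.6 to 113.4 TPM in progenitors. Markers of horizontal basal cells summed to 39.3 to 43.4 TPM in mature neurons and 34.0 to 36.4 TPM in progenitors. The part of these cells in the Slc12a2 level was not tested.

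**Figure D1:**
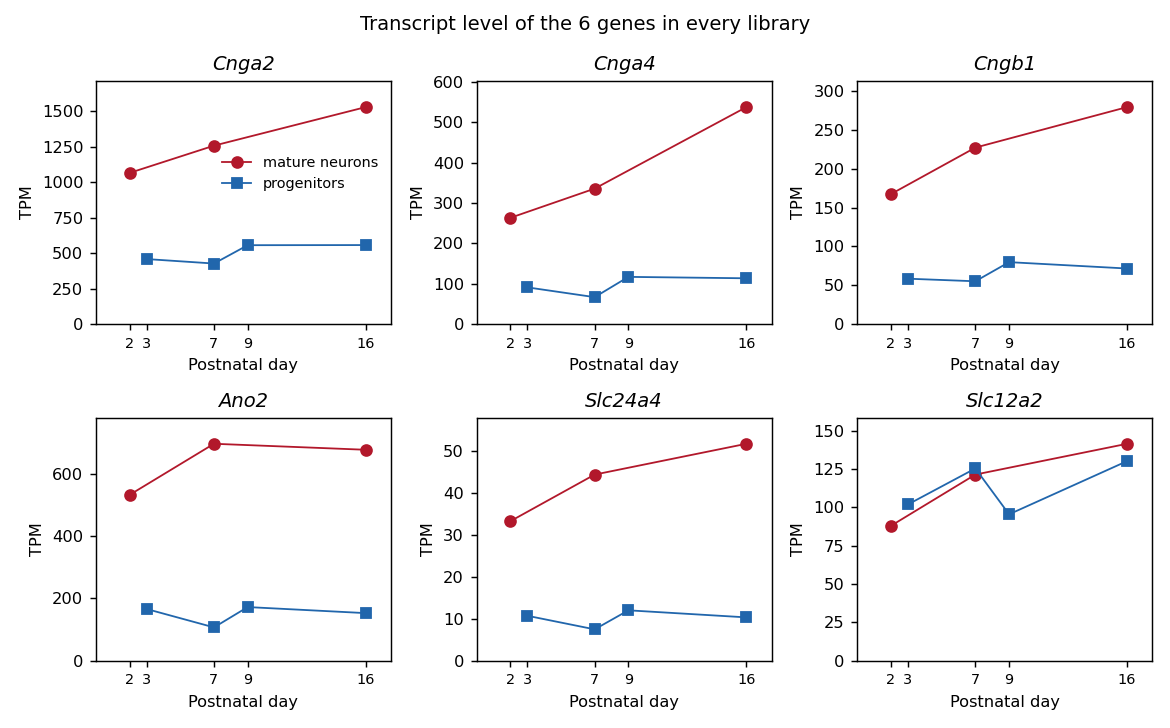
Level of each of the 6 genes (TPM, linear axis from 0, a separate scale in each panel) against postnatal day; red circles are mature neuron libraries (3) and blue squares progenitor libraries (4), joined by lines within a population. The populations are apart in 5 panels, and in the Slc12a2 panel the mature values of 88.0 to 141.5 TPM enclose the progenitor values of 95.5 to 130.2 TPM.

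The order of the genes was much the same in both populations, with the exception of Slc12a2. In mature neurons the order by mean TPM was Cnga2, Ano2, Cnga4, Cngb1, Slc12a2 and Slc24a4. In progenitors Slc12a2 stood between Ano2 and Cnga4 (113.2 ± 17.1 TPM for Slc12a2 and 96.9 ± 23.3 TPM for Cnga4, SD, n = 4). Across libraries of different age, not all neighbours in these orders were apart. In mature neurons the library values of Ano2 overlapped with those of Cnga4, and those of Cnga4 with those of Cngb1. In progenitors the values of Slc12a2 overlapped with those of Ano2 and of Cnga4, and those of Cnga4 with those of Cngb1. Within each of the 7 libraries, however, Ano2 was above Cnga4 (Cnga4 at 0.48 to 0.79 of Ano2) and Cnga4 above Cngb1 (at 1.21 to 1.92 times its level). The values of Cnga2 and of Slc24a4 lay apart from their neighbours in both populations.

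The population difference was tested across all genes with edgeR, a negative binomial model for read counts with a quasi-likelihood test, and p-values were adjusted by the Benjamini-Hochberg method with a threshold of 0.05. Of the 6 genes 5 were higher in mature neurons, where 28.8% of all tested genes were called higher. None of the 6 was called lower, against 30.0% of all tested genes. The median log2 fold of the 6 was 2.04, and that of all tested genes was 0.01. A log2 fold of 2 or more was reached by 4 of the 6, and by 2.90% of all tested genes. In TPM, every mature library lay above every progenitor library for 5 of the 6 and for 22.8% of all tested genes.

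By subunit and carrier, the log2 fold of mature neurons over progenitors was 1.41 ± 0.17 (SE; edgeR adjusted p = 0.000216) for Cnga2. For the modulatory subunits the folds were 2.09 ± 0.28 for Cnga4 (edgeR adjusted p = 0.000356) and 2.03 ± 0.21 for Cngb1 (edgeR adjusted p = 8.75e-05). Ano2 was higher by 2.05 ± 0.17 (edgeR adjusted p = 3.67e-05) and Slc24a4 by 2.19 ± 0.20 (edgeR adjusted p = 4.91e-05). For Slc12a2 the log2 fold was 0.17 ± 0.18 (edgeR adjusted p = 0.449), and over 14 alternative settings it lay between -0.023 and 0.34 with no call. Leaving out the mature P16 library gave the negative value. The other 5 genes were called in all 14 settings.

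**Figure D2:**
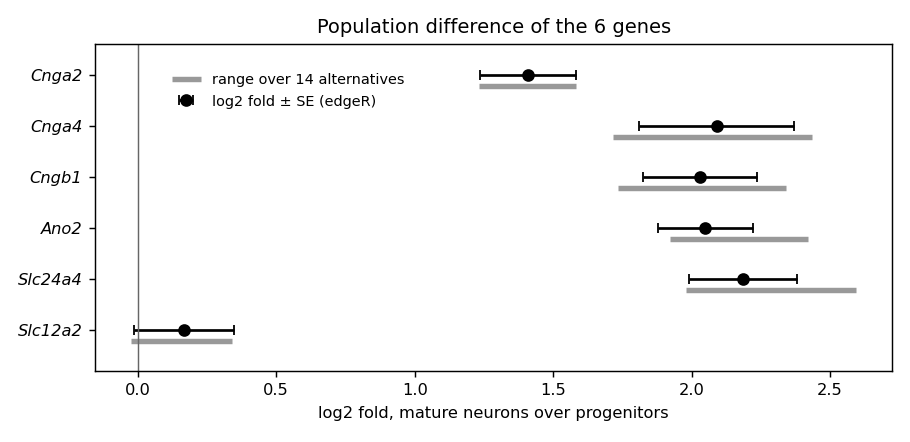
Log2 fold of mature neurons over progenitors for the 6 genes (edgeR; black points with bars of 1 SE), with the grey bar below each point spanning the lowest and highest value over 14 alternative settings. The grey bars of 5 genes lie above 1.2, and that of Slc12a2 runs from -0.023 to 0.34.

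No age has more than 1 library of a population, so libraries of different age stood as replicates, and the p-values reflect their spread, age included, which may in part be technical. At the ages held by both populations the TPM can be set side by side. At P7 the mature level was 2.95 times the progenitor level for Cnga2, 5.05 times for Cnga4, 4.13 times for Cngb1, 6.51 times for Ano2 and 5.94 times for Slc24a4. At P16 the same ratios were 2.75, 4.75, 3.91, 4.44 and 5.01 in the same order of genes. For Slc12a2 the ratio was 0.97 at P7 and 1.09 at P16. With P7 and P16 alone and age as a block, the edgeR log2 folds were 1.58 for Cnga2, 2.43 for Cnga4, 2.34 for Cngb1, 2.42 for Ano2, 2.59 for Slc24a4 and 0.17 for Slc12a2, and the same 5 were called. That fit had 1 library per population at each age, so its calls leaned largely on variance estimates shared across genes.

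The P7 progenitor library had the lowest progenitor level of Cnga2, Cnga4, Cngb1, Ano2 and Slc24a4. It also had the lowest Omp among the progenitors (1323 TPM) and the highest Gap43, a growth cone gene of immature neurons (1250 TPM, against 799, 1002 and 1183 TPM at P3, P9 and P16). Of the other mature neuron markers, Adcy3, Gng13, Stoml3, Slc17a6 and Umodl1 were also lowest there. Gnal, Rtp1, Rtp2 and Kcnk10 were instead lowest at P3 (401, 402.9, 318.3 and 52.0 TPM, against 482.8, 406.6, 321.4 and 62.4 TPM at P7). The progenitor marker Neurog1 was lowest at P7 too (291.9 TPM, against 698.1, 415.9 and 323.5 TPM at P3, P9 and P16). Whether a different mix of stages in that library sets these levels was not tested. Without it, the 5 genes were still called.

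Counts and TPM weigh the populations differently. Over all genes edgeR on counts called 5180 higher and 5385 lower, while limma on log2(TPM + 0.1) called 3806 higher and 5838 lower. These fits also differ in method and in the genes kept. The shares of 28.8% and 30.0% and the calls counted per gene list belong to the edgeR fit. Over all genes compared, the median log2 fold from counts was 0.13 above that from TPM. Cngb1 had a fold of 2.03 from counts and 1.75 from TPM, a gap of 0.28, and Ano2 had 2.05 from counts and 2.10 from TPM, a gap of -0.05. The gaps of Cnga2, Cnga4, Slc24a4 and Slc12a2 were 0.05, 0.15, 0.11 and 0.13. Relative to the shift of all genes, Cngb1 moved most upward and Ano2 most downward among the 6.

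For the 5 genes that were higher in mature neurons, the DNA around their starts was read for a motif long tied to olfactory neuron genes, the core CCCNNGGG bound by early B-cell factors (Olf-1), where N is any base. The motif reads the same on both strands, and it was sought in the 300 bases from 250 before to 50 after each start in RefSeq (build GRCm38.p6). The 5 genes had 7 such windows, and 5 windows held the motif, at least 1 for each gene, against 13.7% of all 32851 windows. Slc12a2 was not read here and these 5 were taken for their call, so the count is a description with no contrast inside the set. Of the 3 windows of Ano2, 1 held it. The homeodomain core TAATTA, which also reads the same on both strands and does not overlap with the other motif, was in 0 of the 7 windows and in 5.29% of all windows. The stretches around each match are printed 5′ to 3′ on the strand of the gene, with the match in capitals.
Cnga2: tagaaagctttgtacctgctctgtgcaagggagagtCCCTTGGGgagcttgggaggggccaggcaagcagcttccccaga
Cnga4: cgcagctggagCCCCAGGGcagcttcttcc
Cngb1: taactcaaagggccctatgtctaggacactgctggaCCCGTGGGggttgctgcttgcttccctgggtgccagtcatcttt
Ano2: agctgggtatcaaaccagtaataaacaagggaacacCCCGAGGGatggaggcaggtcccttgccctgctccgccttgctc
Slc24a4: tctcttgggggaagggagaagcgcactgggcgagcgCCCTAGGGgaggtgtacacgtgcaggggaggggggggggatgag
These stretches lie at chrX:71991747-71991826 (+ strand) for Cnga2, chr7:105404581-105404610 (+) for Cnga4, chr8:95306671-95306750 (- strand) for Cngb1, chr6:125711085-125711164 (+) for Ano2 and chr12:102128582-102128661 (+) for Slc24a4. The match lies before the start by 66 bases in Cnga2, 129 in Cngb1, 67 in Ano2 and 109 in Slc24a4, and 24 bases after the start, within the transcript, in Cnga4. For Ano2 that start is an alternative one inside the span of the gene, and the windows at its other starts held no match. The central bases of the motif differ among all 5 genes. A match of these letters is a description and not evidence of binding.

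In the GENCODE annotation of GRCm38, Cnga2 spans chrX:71991849-72010218 on the + strand, Cnga4 chr7:105404568-105408742 (+), Cngb1 chr8:95239045-95306585 (-), Ano2 chr6:125690419-126040126 (+) and Slc24a4 chr12:102128733-102267091 (+). No exon of the 6 genes overlaps an exon of another gene on either strand.

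The make-up of the CNG channel message was compared next, since a channel built with modulatory subunits differs in sensitivity from one of Cnga2 alone. Cnga2 made up 71.2, 69.1 and 65.2% of the summed TPM of the 3 subunit genes in mature neurons of P2, P7 and P16, against 75.4, 77.8, 73.9 and 75.1% in progenitors at P3, P7, P9 and P16. Cnga4 held 17.6, 18.4 and 22.9% in mature neurons at those ages, against 14.97, 12.1, 15.5 and 15.3% in progenitors. Cngb1 held 11.2, 12.5 and 11.9% in mature neurons, against 9.63, 10.1, 10.6 and 9.65% in progenitors. All mature libraries were below all progenitor libraries in the share of Cnga2 and above them in the shares of Cnga4 and Cngb1.

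Ratios between the genes within a library were tested for a population difference with an exact permutation test, two-sided, over the 35 ways of assigning the 7 libraries, whose smallest possible p is 0.0286. The ratio of Cnga2 to Cnga4 in TPM was 4.05, 3.75 and 2.84 in mature neurons of P2, P7 and P16, against 5.04, 6.41, 4.76 and 4.91 in progenitors at P3, P7, P9 and P16. The ratio of Cnga2 to Cngb1 was 6.36, 5.53 and 5.46 in mature neurons, against 7.83, 7.73, 6.96 and 7.78 in progenitors. Both ratios were lower in all mature libraries, with a log2 difference of -0.58 for Cnga2 over Cnga4 and -0.39 for Cnga2 over Cngb1. The ratio of Cnga2 to Ano2 was 1.999, 1.80 and 2.26 in mature neurons, against 2.76, 3.98, 3.22 and 3.64 in progenitors, a log2 difference of -0.74. For Cnga2 over Slc24a4 the ratio was 32.1, 28.4 and 29.6 in mature neurons, against 42.8, 57.1, 46.3 and 54.0 in progenitors, a log2 difference of -0.73. Cnga2 thus stood higher relative to its modulatory subunits, the chloride channel and the exchanger in progenitors than in mature neurons.

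Each of these 4 ratios reached the smallest p of the exact permutation test (two-sided, 3 against 4 libraries), 0.0286, or 0.0476 after adjustment over all 15 pairs of the 6 genes. All 5 pairs with Slc12a2 reached the same p in that exact test, with log2 differences of 1.33 for Cnga2, 1.91 for Cnga4, 1.72 for Cngb1, 2.07 for Ano2 and 2.06 for Slc24a4, each gene over Slc12a2. The 15 pairs share genes and are not independent of each other. The adjusted p depends on how many pairs reach the smallest p, and the 4 ratios passed only together with the 5 pairs with Slc12a2. Those 5 restate the population difference, in which the other genes were higher and Slc12a2 was not called. With CPM (reads scaled to library size with TMM factors) in place of TPM none of the 9 pairs passed the threshold, although all 9 kept their direction: the adjusted p of the exact permutation test was 0.0536 for 8 of them and 0.0952 for Cnga2 over Ano2. Cnga2 over Ano2 no longer reached the smallest p, and this alone raised the adjusted p of the other 8. The size of the log2 differences also moved with the setting. Over 9 alternatives they ran from -0.62 to -0.35 for Cnga2 over Cngb1 and from -0.84 to -0.66 for Cnga2 over Ano2.

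**Figure D3:**
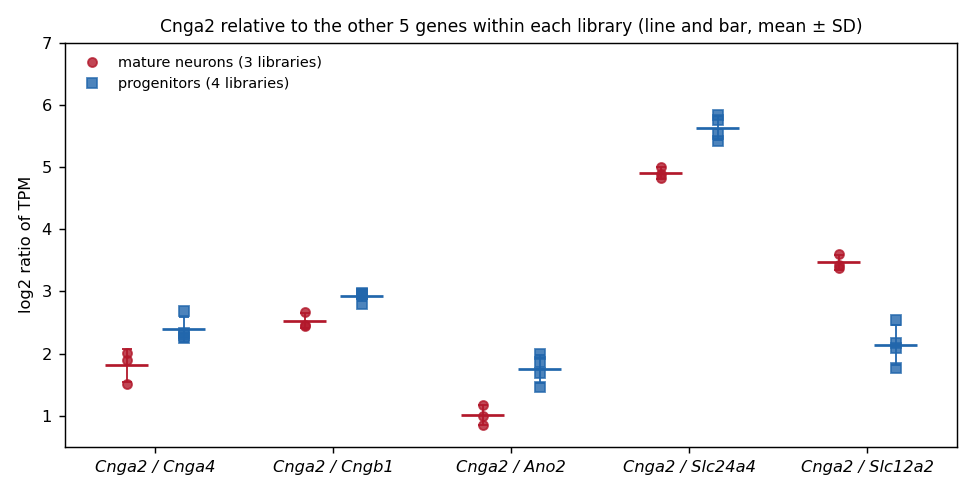
Log2 of the TPM ratio of Cnga2 to each of the other 5 genes within each library; red circles are mature neurons (3 libraries), blue squares progenitors (4 libraries), with lines at the mean and bars of 1 SD of the log2 values. The mature points lie below the progenitor points for Cnga4, Cngb1, Ano2 and Slc24a4 (log2 differences from -0.39 to -0.74) and above them for Slc12a2 (1.33).

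The 6 remaining pairs did not pass. Ano2 and Slc24a4 kept close to a fixed ratio, with 16.1, 15.7 and 13.1 TPM of Ano2 per TPM of Slc24a4 in mature neurons of P2, P7 and P16, against 15.5, 14.3, 14.4 and 14.8 in progenitors at P3, P7, P9 and P16. The log2 difference of that ratio was 0.01 (adjusted p = 0.83, exact permutation test, two-sided). It was 0.19 for Cnga4 over Cngb1, -0.16 for Cnga4 over Ano2, -0.15 for Cnga4 over Slc24a4 and -0.35 for Cngb1 over Ano2 (adjusted p between 0.195 and 0.520, same exact test). For Cngb1 over Slc24a4 it was -0.34 (adjusted p = 0.0857, same exact test). Over 9 alternatives the log2 difference of Cngb1 over Ano2 ran from -0.47 to -0.05.

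The likeness of 2 expression patterns was measured as the root-mean-square difference of log2 CPM over the 7 libraries after each gene was centred on its mean, where 0 is an identical pattern. Among the 6, Ano2 and Slc24a4 were closest at 0.11, followed by Cngb1 with Slc24a4 at 0.14 and Cnga4 with Cngb1 at 0.15. Slc12a2 was at 0.65 to 1.06 from the others. Other genes were then searched, leaving out olfactory and vomeronasal receptor genes and genes with Gm, Rik or -ps symbols. Of the 9701 genes searched, the nearest to Cnga2 were Faim2 (0.05) and Tmem136 (0.06), and the nearest to Cnga4 were Tspan7 (0.11) and Stom (0.12). For Cngb1 they were Ddo (0.08) and Atp2c2 (0.10), for Ano2 Togaram2 (0.07) and Kcnc4 (0.09), and for Slc24a4 Tmc5 (0.09) and Sec14l5 (0.10). Pcdhb17 and Paqr3, both at 0.11, were nearest to Slc12a2, and neither was called between the populations in the main edgeR test (with age as a covariate both were called higher, at adjusted p = 0.0217 for Pcdhb17 and 0.0416 for Paqr3, and Pcdhb17 also without the P2 mature library, at a log2 fold of 0.54 and adjusted p = 0.0381). Stom was abundant, with 2923, 3754 and 4900 TPM in mature neurons of P2, P7 and P16, against 981.1, 623.7, 1145 and 1083 TPM in progenitors at P3, P7, P9 and P16.

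With age, all 6 genes had a higher TPM at P16 than at P2 in mature neurons. The P16 level was 1.44 times the P2 level for Cnga2, 2.04 times for Cnga4, 1.67 times for Cngb1, 1.27 times for Ano2, 1.56 times for Slc24a4 and 1.61 times for Slc12a2. In progenitors the P16 level relative to P3 was 1.22, 1.25, 1.23, 0.92, 0.96 and 1.28 times for the same genes in that order. These ratios compare 1 library with 1 library and have no replicate check.

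A slope shared by both populations was fitted by edgeR in log2 units per doubling of the postnatal day. It was 0.18 ± 0.05 for Cnga2, 0.27 ± 0.09 for Cnga4, 0.20 ± 0.07 for Cngb1, 0.05 ± 0.08 for Ano2, 0.12 ± 0.08 for Slc24a4 and 0.19 ± 0.06 for Slc12a2 (SE). None of the 6 was called (edgeR adjusted p between 0.110 and 0.779), as for 0.00% of all tested genes. At an unadjusted edgeR p under 0.05 stood 4 of the 6 (Cnga2, Cnga4, Cngb1 and Slc12a2) and 20.8% of all tested genes. DESeq2, another count model, called those 4, with adjusted p of 0.00609 for Cnga2, 0.0336 for Cnga4, 0.0316 for Cngb1 and 0.0173 for Slc12a2, while limma on log2 TPM called 0. In that DESeq2 fit 4.24% of the 15535 genes with an adjusted p were called with a slope above 0. The median slope of the 6 was 0.18 and that of all tested genes was -0.0028.

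Whether the slope differs between the populations was tested as an interaction. The slope of mature neurons minus that of progenitors was 0.07 ± 0.10 for Cnga2, 0.21 ± 0.18 for Cnga4, 0.14 ± 0.14 for Cngb1, 0.20 ± 0.15 for Ano2, 0.26 ± 0.15 for Slc24a4 and 0.14 ± 0.11 for Slc12a2 (SE). No gene was called, among the 6 or elsewhere (edgeR adjusted p of the 6 between 0.821 and 0.926; 0.00% of all tested genes). At an unadjusted edgeR p under 0.05 there were 0 of the 6 and 5.98% of all genes, and DESeq2 and limma called 0 of the 6. Without the progenitor P3 library the difference was -0.090 for Cnga2, -0.18 for Cnga4 and -0.057 for Ano2.

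Most other genes of the odor pathway were higher in mature neurons as well. Of 24 measured transduction partners 23 were tested, 18 were higher in mature neurons and 4 were lower, with a median log2 fold of 1.19 against 0.01 for all tested genes. Of all tested genes 28.8% were called higher and 30.0% lower. Omp, Adcy3, Gnal, Gng13, Rtp1, Rtp2, Stoml3 and Slc17a6 are also among the mature neuron markers counted above, and Gng8 among those of immature neurons. The count of partners is therefore not separate from the counts of markers. Adcy3, the adenylyl cyclase that makes the cyclic AMP, had a mean of 672.6 TPM in mature neurons and 159.9 TPM in progenitors, a log2 fold of 2.22 (edgeR adjusted p = 0.000168). Gnal, the olfactory G protein subunit that activates it, had 1640 TPM in mature neurons and 535.4 TPM in progenitors (log2 fold 1.74, edgeR adjusted p = 0.000160). Pde1c, the phosphodiesterase of the cilia, was higher by 2.03 (edgeR adjusted p = 5.45e-05), and Stoml3, a stomatin-like protein of the cilia, by 1.95 (edgeR adjusted p = 0.000534). The receptor transport genes Rtp2 and Reep1 were higher by 1.19 and 1.46, the kinase gene Camk2a by 1.14 and the glutamate transporter gene Slc17a6 by 1.69 on the log2 scale.

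The G protein subunits that other tissues and younger neurons use went the other way. Gnas, the general stimulatory G protein subunit, had 138.9, 115.5 and 70.2 TPM in mature neurons of P2, P7 and P16, against 652.5, 518.2, 518.1 and 501 TPM in progenitors at P3, P7, P9 and P16 (log2 fold -2.20, edgeR adjusted p = 7.78e-05). Gng8, a gamma subunit of immature olfactory neurons, had a log2 fold of -2.47 (edgeR adjusted p = 0.000145). For Omp the log2 fold was -0.41 (edgeR adjusted p = 0.179), and without the P7 progenitor library it was -0.57 (edgeR adjusted p = 0.0381).

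Of the 7 other CNG and HCN channel genes (HCN channels open on hyperpolarization and are modulated by cyclic AMP) 6 were tested, 5 were higher in mature neurons and 1 was lower, with a median log2 fold of 1.06. Among all tested genes 28.8% were called higher and 30.0% lower. The remaining CNG subunits were scarce. Cnga3, the cone photoreceptor subunit that also serves a small class of olfactory neurons using cyclic GMP, had 1.65, 1.24 and 1.01 TPM in mature neurons of P2, P7 and P16, against 0.34, 0.09, 0.17 and 0.21 TPM in progenitors at P3, P7, P9 and P16 (log2 fold 2.26, edgeR adjusted p = 0.00157). Cnga1, the rod subunit, had at most 0.03 TPM in any library. Hcn2 had 118.5 TPM in mature neurons and 39.1 TPM in progenitors (log2 fold 1.72, edgeR adjusted p = 6.71e-05), and Hcn3 was lower (log2 fold -1.51).

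Ano2 had the highest level of the anoctamins in every library, with the narrowest margin in P7 progenitors, where it had 107 TPM beside 42.1 TPM for Ano10 and 41.4 TPM for Ano8. Ano1, its closest relative and a chloride channel of secretory epithelia, had 5.09, 3.63 and 2.20 TPM in mature neurons of P2, P7 and P16, against 3.01, 1.87, 3.38 and 1.88 TPM in progenitors at P3, P7, P9 and P16 (log2 fold 0.55, edgeR adjusted p = 0.113; 0.76, adjusted p = 0.0236, without the P16 mature library). Ano6, known as a lipid scramblase, was higher in mature neurons (18.9 TPM in mature neurons and 11.2 TPM in progenitors, log2 fold 0.87, edgeR adjusted p = 0.00345). Ano8 and Ano10 were lower, with log2 folds of -0.44 and -0.37. Across the 28 other anoctamin and chloride channel genes with a row, 17 were tested, 5 were higher and 8 lower in mature neurons, with a median log2 fold of -0.38. These counts stand beside 28.8% higher and 30.0% lower among all tested genes. The endosomal exchanger gene Clcn3 was higher by 0.66, while the channel gene Clcn2 and the lysosomal exchanger gene Clcn6 had log2 folds of -1.33 and -0.93.

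Slc24a4 was not the most abundant exchanger message of its family. Slc24a2, a relative known from cone photoreceptors and brain, had 89.4, 105.3 and 97.6 TPM in mature neurons of P2, P7 and P16, against 57.9, 66.9, 69.2 and 61.2 TPM in progenitors at P3, P7, P9 and P16. Its level was above that of Slc24a4 in all 7 libraries, and its log2 fold was smaller, 0.93 ± 0.10 (SE; edgeR adjusted p = 0.000105) beside 2.19 ± 0.20 for Slc24a4; the difference of these folds was not tested. Slc8a1, a sodium-calcium exchanger without potassium, had 54.7 TPM in mature neurons and 16.4 TPM in progenitors (log2 fold 1.87, edgeR adjusted p = 7.00e-05). The plasma membrane calcium pump genes Atp2b4 and Atp2b1 were higher by 1.61 and 0.50, and Atp2a2, the calcium pump of the endoplasmic reticulum, by 0.63. Of 15 other calcium exchanger and pump genes, those of the endoplasmic reticulum included, 13 were tested, 6 were higher and 2 were lower, with a median log2 fold of 0.50. The shares over all tested genes were 28.8% higher and 30.0% lower.

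Genes related to Slc12a2 were called in both directions, beside 28.8% higher and 30.0% lower among all tested genes. Of 21 other cation-chloride cotransport, bicarbonate transport and regulatory kinase genes 20 were tested, 6 were higher and 4 lower in mature neurons, with a median log2 fold of 0.13. Slc12a5, the neuronal potassium-chloride cotransporter KCC2 that lowers chloride, had 5.37, 7.88 and 9.73 TPM in mature neurons of P2, P7 and P16, against 1.64, 2.14, 1.95 and 2.78 TPM in progenitors at P3, P7, P9 and P16 (log2 fold 2.21 ± 0.17, SE; edgeR adjusted p = 2.37e-05; 1.45 by limma on log2(TPM + 1)). In every library its level was below that of Slc12a2. For Slc12a7, another potassium-chloride cotransporter, the log2 fold was -0.02 (edgeR adjusted p = 0.807). Slc4a4, a sodium-bicarbonate cotransporter, was higher by 1.78 and Slc4a8 by 0.80, and Wnk3, a kinase that regulates these carriers, had a log2 fold of -0.83.

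The sodium-potassium pump supplies the gradients that both the exchanger and the cotransporter use. Its beta subunit gene Atp1b1 had 1705 TPM in mature neurons and 847.5 TPM in progenitors (log2 fold 1.21, edgeR adjusted p = 9.85e-05). Fxyd2, a pump regulator, was higher by 2.85 and Atp1b2 had a log2 fold of -2.10. Of 11 pump genes 8 were tested, 5 were higher and 3 lower in mature neurons, with a median log2 fold of 1.03. Over all tested genes the shares were 28.8% higher and 30.0% lower.

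**Figure D4:**
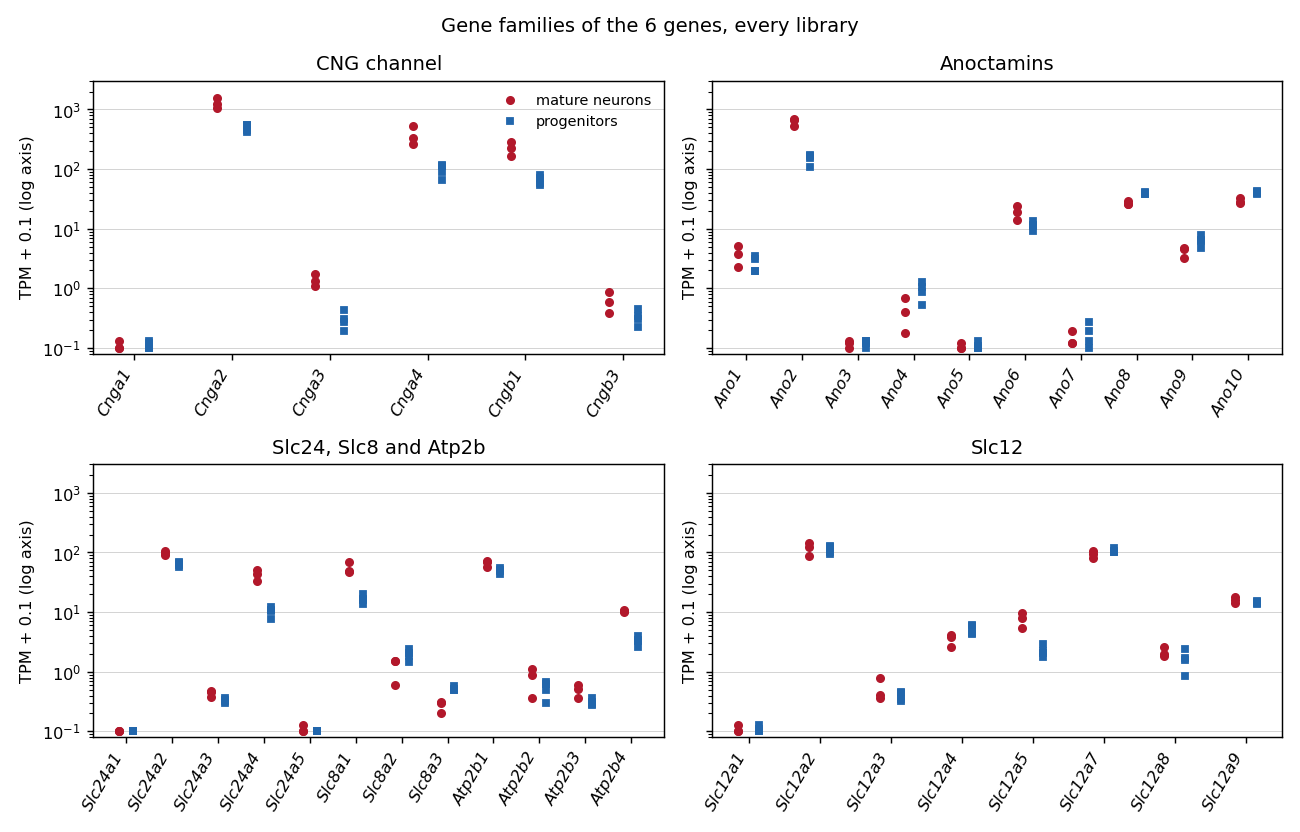
Level of the 6 genes and of members of their families in every library, as TPM + 0.1 on a log axis shared by the 4 panels; red circles are mature neurons (3 libraries) and blue squares progenitors (4 libraries). Cnga2, Cnga4 and Cngb1 stand above the other CNG subunits, Ano2 above the other anoctamins, Slc24a2 above Slc24a4, and Slc12a2 overlaps between the populations.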

How the data were processed

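TRIzol served to extract RNA after sorting, and the TruSeq Stranded mRNA kit to build libraries, per the labels' protocols. The tools STAR 2.6.1c, RSEM and bcl2fastq 2.18 and the build mm10 appear, with no roles, in the submitters' processing notes. The sources used here do not state the annotation release, the strand setting or the treatment of multi-mapping reads. The authors deposited whole-number read counts per gene and, in another table, TPM values. Entries naming no gene (23.53% to 27.22% of each library's total) entered neither library sizes nor tests.

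The main test was edgeR 4.0.16 (R 4.3.3; quasi-likelihood, TMM, filterByExpr, Benjamini-Hochberg) on the deposited counts of 3 mature neuron and 4 progenitor libraries. Age slopes used log2 of the postnatal day. The SE given with an edgeR estimate was derived from the test, as the absolute estimate over the square root of its F statistic. Ratios of TPM were compared by exact permutation (scipy 1.17.1). The alternatives were DESeq2 1.42.0, RLE scaling, no low-count filter, limma 3.58.1 on log2(TPM + 1) and log2(TPM + 0.1), each library left out, P7 and P16 with age as a block, age as a covariate, day in place of its log2, and CPM or TPM + 1 for ratios. The edgeR fits were also run on simulated counts with the same dispersion for every gene. That setting is simpler than these data, and its outcome is not given here.

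The 6 genes, the gene lists and the tests were chosen with earlier results of these data known. From each list the text names up to 4 called genes with the smallest p and a mean TPM of at least 5 in either population, and for each of the 6 genes the 2 with the nearest pattern, among tested genes with a mean of at least 10 CPM. The search for near patterns left out the 6 genes, olfactory and vomeronasal receptor genes, and genes with Gm, Rik or -ps symbols. Omp, Adcy3, Gnal, Gnas, Gng8, Pde1c, Stoml3, Umodl1, Kcnk10, Gap43, Cnga1, Cnga3, Ano1, Ano6, Ano8, Ano10, Atp2b1 and Slc12a7 were named outside that rule after their values were seen. So were Aqp5 and Bpifa1. A few further genes are not reported here. Whether the libraries stem from separate animals is not stated in the labels. Lists held 3 symbols with no row in the tables.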

Additional observations from a re-analysis of the deposited data

Results flagged for a closer look

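Among 21 sets of progenitor values tested for a single library far from the others, 2 were met, where chance gives about 1 in 20. The ratio of Cnga2 to Cnga4 was 6.41 in the P7 progenitor library, against 4.76 to 5.04 in the other 3 progenitor libraries, and this library lay above the rest. The ratio of Cnga2 to Cngb1 was 6.96 in the P9 progenitor library, against 7.73 to 7.83 in the other 3, and this library lay below the rest. Both values still lay above all mature neuron libraries, at 2.84 to 4.05 for the Cnga4 ratio and 5.46 to 6.36 for the Cngb1 ratio.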

How the results depend on the processing

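Higher expression in mature neurons held for Cnga2, Cnga4, Cngb1, Ano2 and Slc24a4 under all 14 alternatives, with log2 folds from 1.23 (the lowest, for Cnga2) to 2.59 (the highest, for Slc24a4), and the number of the 6 called stayed at 5. Slc12a2 was called under none. With single libraries left out its log2 fold ranged from -0.023 to 0.342, that of Paqr3 from -0.0059 to 0.353 and that of Slc12a7 from -0.076 to 0.024, each turning without the P16 mature library, and Slc12a7 was at 0.0073 with P7 and P16 and the age block. The number of the 6 called for the age slope was 0 by edgeR and 4 by DESeq2. Over all genes that slope gave 0 calls by edgeR, 658 higher and 865 lower by DESeq2, 315 and 455 with no filter, 438 and 686 with postnatal day in place of its log2, and 367 and 619 without the P7 mature library, with 0 of the 6 among them except by DESeq2. The Ano2 slope ranged from -0.047 (without the P2 mature library) to 0.141. The slope difference gave 0 calls over all genes by edgeR, 7 higher and 4 lower by DESeq2, 1 higher without the P2 mature library and 2 lower without the P16 progenitor library. With single libraries left out it ranged from -0.090 to 0.153 for Cnga2, from -0.176 to 0.499 for Cnga4 and from -0.057 to 0.242 for Ano2, the negative values being those without the P3 progenitor library. Of 15 ratios, 9 passed with TPM and with TPM + 1, and 0 with CPM. With a library left out no ratio can pass (smallest p of the exact permutation test 0.0667 or 0.1). The log2 difference of the Ano2 to Slc24a4 ratio was -0.12 with CPM and ranged from -0.039 (without the P2 mature library) to 0.107 with single libraries left out, and it was -0.024 without the P7 mature library. Hcn4 lost its call by limma and without the P7 mature library, and the fold of Cnga3 was 2.94 with the age block. The causes were not tested. The labels give no replicate numbers; the libraries of equal age, P7 and P16, were paired in the age block. Slc24a4 rested on 356 to 2416 reads per library, the smallest numbers among the 6.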
